A study of Drosophila melanogaster with 12 samples.

Results

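The libraries described here asked what an anti-Egg antibody still brings down, over and under the input DNA, once Egg itself has been depleted. The tested library was the Egg ChIP of ovarian somatic cells 4 days into knockdown of egg (siEgg ChIP), and its reference was the DNA of the same knockdown before immunoprecipitation (siEgg input). An Egg ChIP and an input from cells treated for 4 days against EGFP, a target absent from the fly genome, are given beside them as the siEGFP pair. Ovarian somatic cells are a cultured line of Drosophila melanogaster derived from the somatic follicle cell lineage, and all cells were fixed with formaldehyde. The series lists 12 samples in 8 groups, and siPiwi and siWde samples were not analysed here. Each of the 4 groups used here has 2 labelled samples but 1 column of values with no replicate number. Whether a column is 1 sample or a pool is unknown, and a column is called a library from here on.

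Egg, also named Eggless, is the fly SETDB1, an enzyme that places methyl groups on lysine 9 of histone H3, a mark of silent chromatin. It works with its partner Windei, and in ovarian somatic cells Piwi, guided by small RNAs called piRNAs, leads it to transposons, whose transcription is then silenced. In ChIP-seq, a sequence bound by the target takes a larger share of reads in the ChIP than in the input. DNA reads do not report expression, so neither the loss of Egg nor the cell type could be checked against RNA markers.

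A gene or transposon was kept when its level, summed over its transcript rows, was above 0.6 RPKM (reads scaled to row length and to library size) in both siEgg libraries. This kept 16097 of 16757 genes and 123 of 175 transposon rows, together 16220 of 16932. Of the 660 genes not kept, 250 were low in both libraries, 265 in the ChIP alone and 145 in the input alone, and none had more than 11 ChIP or 12 input reads. Of the 52 transposon rows not kept, 46 were listed at 0 in both libraries. Just inside the limit lay lncRNA:CR45204 at 0.602 RPKM in the ChIP, and just outside it Su(Ste):CR42407, a member of a repeated gene family, at 0.598 RPKM in the input. Of the transposon rows kept, 6 represent elements of other Drosophila species.

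The siEgg ChIP held 1698148 reads and the siEgg input 2293964 reads, against 1796866 and 2183061 reads for the siEGFP ChIP and input. The rows of the table took 34.6% of the siEgg ChIP and 33.6% of the siEgg input. Transposon rows took 11.7% of the siEgg ChIP and 10.2% of its input, against 14.4% and 10.1% in the siEGFP pair. The median gene had 15 reads in the siEgg ChIP and 21 in the siEgg input, and the median transposon had 700 and 861. Transposon values therefore carry far less counting error than gene values.

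The ratio reported is log2((ChIP + 0.6)/(input + 0.6)) of RPKM, so 0 means an equal share and 1 means 2-fold above input. With 1 library per group there is no replicate spread and no test across samples. Each ratio is given with a 95% exact (Clopper-Pearson) interval on the split of reads between the 2 libraries, and that interval covers counting error only, since reads copied by PCR are not independent molecules. A feature is called above or below input when its log2 ratio is at least 1 in size and its interval excludes 0. For genes with several rows the ratio comes from summed RPKM and the interval from summed reads, so a few ratios lie outside their own interval.

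Most genes and transposons lay near input after Egg knockdown. The 16097 genes had a median ratio of -0.03 in siEgg, with quartiles of -0.34 and 0.30 and a standard deviation of 0.59. The same genes in the siEGFP pair had a median of -0.28 and a standard deviation of 0.92. Restricted to the 5010 genes with at least 20 reads in each of the 4 libraries, the standard deviation was 0.32 in siEgg and 0.55 in siEGFP. The 123 transposons had a median of 0.17 in siEgg (quartiles 0.05 and 0.33, standard deviation 0.30), against a median of 0.19 and a standard deviation of 0.55 in siEGFP.

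In siEgg, 208 genes were called above input, which is 1.29% of those kept, and 171 were called below, which is 1.06%. In siEGFP 5.57% of genes were called above and 6.37% below. Among transposons 1 was called above input in siEgg (0.813%) and 0 below, against 4.1% above in siEGFP. The gene calls were mostly made on few reads: 135 of the 208 genes above input had under 10 input reads, and 110 of the 171 below had under 10 ChIP reads. Among the 10514 genes with at least 10 reads in both siEgg libraries, 73 were called above (0.694%) and 61 below (0.58%). Among the 6125 genes with at least 20 reads in both, the calls were 11 above (0.18%) and 9 below (0.147%). Just inside the 2-fold limit lay igl at 1.00 and just outside it the histone copy His3:CG33824 at 0.999, while below input fok, with 13 ChIP and 35 input reads, was just inside and CG7848 at -0.999 just outside.

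**Figure D1:**
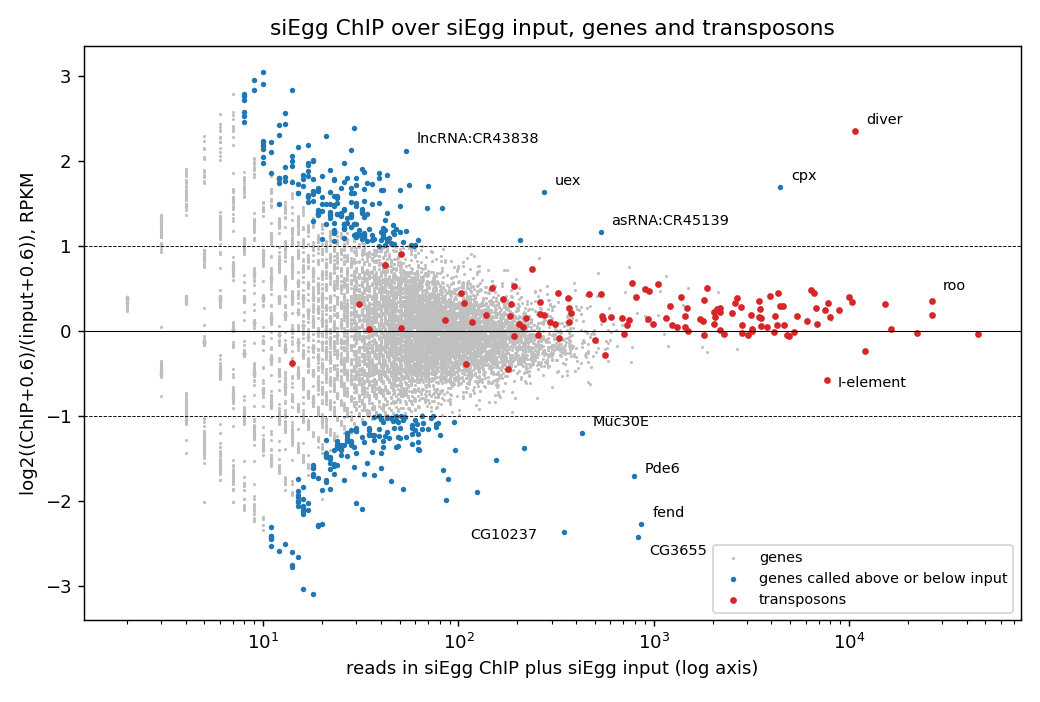
Log2 ratio of siEgg ChIP over siEgg input (vertical axis, RPKM with 0.6 added) against the reads in both libraries together (horizontal log axis) for 16097 genes (grey, called genes blue) and 123 transposons (red). Dashed lines mark 2-fold, and the calls past them lie mostly at low read numbers. Exceptions with many reads include diver and cpx above the lines and CG3655, fend and Pde6 below them.

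The retrotransposon diver, a member of the BEL/Pao family with long terminal repeats, was the transposon that stayed furthest above input. It had 8538 reads (823 RPKM) in the siEgg ChIP and 2260 reads (161 RPKM) in the siEgg input, a ratio of 2.35 (interval 2.28 to 2.42) or 5.09-fold. In the siEGFP pair it had 40005 ChIP reads and 2176 input reads, a ratio of 4.48 or 22.3-fold. The inputs were alike and the ChIP libraries were not, and the change between pairs was -2.13 (interval -2.22 to -2.04). Even so diver supplied 4.31% of the siEgg ChIP reads of all kept transposons, against 0.966% of their siEgg input reads. In the siEGFP ChIP its share was 15.5%.

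No other transposon reached 2-fold in siEgg, but 55 of the 123 (44.7%) had an interval above 0 and 5 (4.07%) had an interval below it, and the other 63 intervals held 0. For genes the same count was 405 above (2.52%) and 435 below (2.7%), on far fewer reads per gene. The reads of all kept transposons together gave a ratio of 0.19 (interval 0.19 to 0.20) in siEgg and 0.51 in siEGFP. Without diver these sums were 0.14 in siEgg and 0.28 in siEGFP.

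DNA transposons, which move by cutting and pasting rather than through RNA, had the highest median of the 5 transposon lists. The 20 kept had a median ratio of 0.44 in siEgg and 0.33 in siEGFP, and 12 of the 20 siEgg intervals lay above 0 and 0 below. Summed, they had 6628 ChIP and 6851 input reads in siEgg, a ratio of 0.39 (0.34 to 0.44), against 0.34 in siEGFP. Among them Bari2 had 30 ChIP and 21 input reads, a ratio of 0.90 (0.10 to 1.83), and -0.29 in siEGFP. S2 had 131 and 106 reads, a ratio of 0.73 (0.36 to 1.12), hopper had 406 and 372 reads, a ratio of 0.56, and the S-element had 546 and 503 reads, a ratio of 0.55. Bari2 and S2 are therefore the highest of the list but rest on the fewest reads of these 4. Outside the list, the row for an element of another species, Ddip\Bari1, had 24 and 18 reads and 0.77 (-0.09 to 1.82) in siEgg and 0.79 in siEGFP. NOF, found with the foldback element FB, had 0.53 in siEgg and -0.25 in siEGFP. The transib elements, relatives of the source of the vertebrate RAG recombinase, had siEgg intervals above 0 in 3 of 4 cases. The ratio of transib4 was 0.51 in siEgg and 1.14 in siEGFP, that of transib2 0.47 and 0.23, and that of transib3 0.44 and -0.21, while transib1 had 0.04 (-0.36 to 0.44) in siEgg and 1.12 in siEGFP.

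Retrotransposons that the somatic piRNA pathway is known to silence lay a little above input. The 19 kept had a median of 0.24 in siEgg and 0.41 in siEGFP, with 13 siEgg intervals above 0 and 1 below. Their summed reads, 64537 in the siEgg ChIP and 77860 in the siEgg input, gave 0.16 (0.15 to 0.18), against 0.58 in siEGFP. The gypsy retrotransposon had 12169 ChIP and 14499 input reads in siEgg, a ratio of 0.18 (0.15 to 0.22), and 22908 and 14167 reads in siEGFP, a ratio of 0.97. The element FBgn0000004, given by its identifier because its name is a number, had 0.24 in siEgg and 1.09 in siEGFP. Both thus lay close to input in siEgg and about 2-fold above it in siEGFP. Stalker4 and Idefix went the other way, with 0.48 and 0.44 in siEgg against 0.16 for each in siEGFP. Their changes of 0.31 and 0.28 stand beside gene medians of -0.28 in siEGFP and -0.03 in siEgg. ZAM had 638 and 861 reads in siEgg, a ratio of 0.00 (-0.15 to 0.15), and 0.03 in siEGFP. springer, with 19133 ChIP and 26634 input reads the most deeply read transposon, had -0.04 (-0.07 to -0.02) in siEgg and 0.54 in siEGFP.

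HeT-A, which extends telomeres in flies by retrotransposition, had 680 ChIP and 695 input reads in siEgg, a ratio of 0.40 (0.25 to 0.56), and 1294 and 680 reads in siEGFP, a ratio of 1.20. roo, a BEL/Pao relative of diver, had 12947 ChIP and 13715 input reads in siEgg, a ratio of 0.35 (0.32 to 0.39), and -0.10 in siEGFP. Its siEgg value was among the most precisely counted and was higher than in the control pair. The 28 LINE elements, retrotransposons without terminal repeats, had a median of 0.06 and summed to -0.00 (-0.02 to 0.02) in siEgg. Within them the R2-element, which inserts into ribosomal RNA genes, had 0.43, and Cr1a had 0.40 on 4974 ChIP and 5081 input reads.

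The I-element, the LINE element behind I-R hybrid dysgenesis, lay furthest below input in siEgg. It had 2551 ChIP and 5147 input reads in siEgg, a ratio of -0.58 (-0.65 to -0.51), and 2140 and 4676 reads in siEGFP, a ratio of -0.85. The row for the same element of another species, Dtei\I-element, had 62 and 117 reads and -0.45 in siEgg, and -0.60 in siEGFP. Reads of the fly element may be shared between these 2 rows. Rt1b had -0.23 (-0.29 to -0.18) in siEgg and -0.00 in siEGFP, and G6 had -0.28 (-0.54 to -0.03) in siEgg and 0.72 in siEGFP. R1-2 and Helitron had lower values, -0.40 and -0.38, but their intervals held 0.

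Between the pairs, 36 transposons had intervals above 0 in both and 2 had intervals below 0 in both. Another 3 had an interval above 0 in siEgg and below 0 in siEGFP, and 2 the reverse. The change, siEgg minus siEGFP, had an interval above 0 for 32 transposons and below 0 for 30, so the siEgg values were not uniformly the lower ones. These changes were not centred on the genes, whose median was -0.28 in siEGFP and -0.03 in siEgg. The counts of 32 and 30 therefore include that shift between the pairs. Over the 117 transposons with at least 20 reads in each library, Pearson's r between the ratios of the siEgg and siEGFP pairs was 0.67 and Spearman's rho 0.25. Without diver r was 0.33 and rho 0.23 over 116 transposons. These points share reads between related elements and are given as a description.

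**Figure D2:**
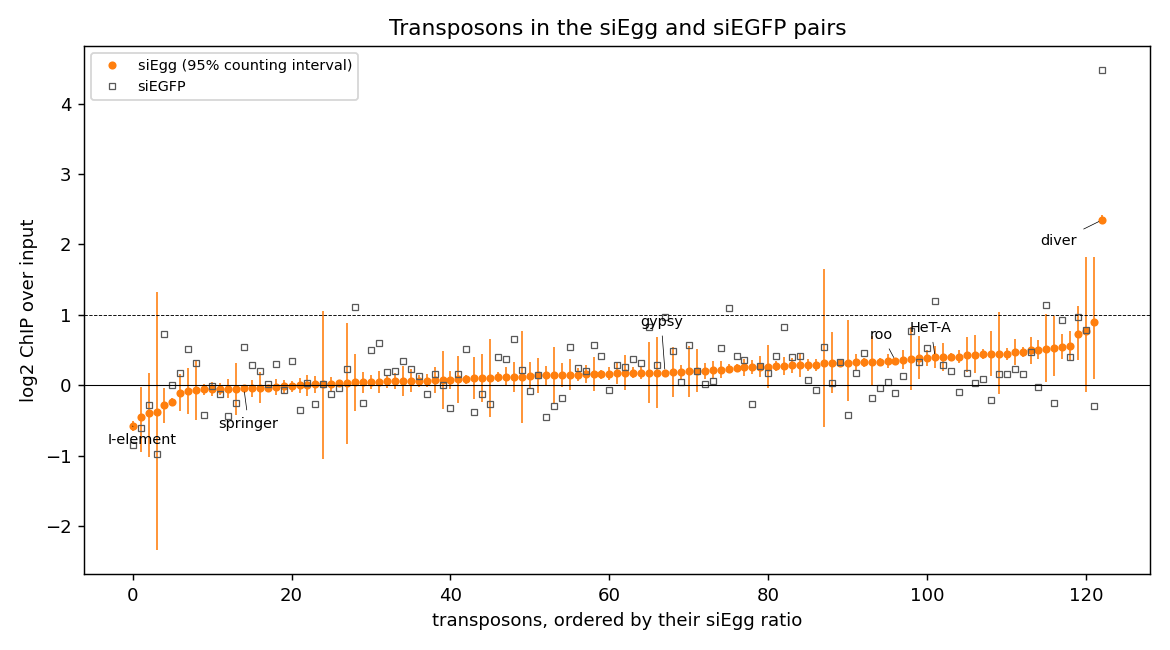
Log2 ChIP over input for the 123 kept transposons, ordered by their siEgg ratio, with siEgg as filled circles with 95% counting intervals and siEGFP as open squares. In siEgg diver at 2.35 lies apart and all others lie between -0.58 and 0.90, whereas siEGFP values scatter more widely.

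Among genes with many reads, cpx stood highest in siEgg, and it lay above input in both pairs. This gene encodes complexin, a SNARE-binding protein of synaptic vesicle release, and lies at 3R:4280221-4304604 (dm6, as are all positions here). It had 3124 reads in the siEgg ChIP and 1329 in the siEgg input, a ratio of 1.69 (1.57 to 1.76) or 3.23-fold. In siEGFP it had 2408 and 1101 reads, a ratio of 1.44 (1.31 to 1.51). The change of 0.25 (0.12 to 0.40) put the siEgg ratio above the siEGFP ratio. The median gene also lay higher in siEgg, at -0.03 against -0.28 in siEGFP, so this change does not set cpx apart from other genes. Its summed siEgg input of 154 RPKM compares with 6.43 RPKM for the median gene. Of its 21 transcript rows, 18 had intervals above 0 in siEgg, with ratios between 1.12 and 2.08, and the other 3 rows, with 7 to 9 ChIP reads each, lay between -0.61 and -0.02.

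uex, which encodes a magnesium transporter of the CNNM family, and the antisense RNA gene asRNA:CR45139 lie in the pericentromeric part of 2R. Their positions are 2R:3900285-3949425 and 2R:3943429-3949757. uex had 195 ChIP and 80 input reads in siEgg, a ratio of 1.63 (1.34 to 2.11) or 3.09-fold, and 1156 and 77 reads in siEGFP, a ratio of 4.03. asRNA:CR45139 had 337 and 198 reads in siEgg, a ratio of 1.16 (0.94 to 1.46), and 1229 and 185 reads in siEGFP, a ratio of 2.97. Both stayed above input while lying far below their siEGFP ratios. The 2 genes overlap and ChIP reads carry no strand, so their signals cannot be told apart. Within uex the rows of 3936 and 3417 bases had siEgg ratios of 1.63 and 1.88, and the other 2 rows, of 2867 bases each, had 0.21 and 0.90 with intervals that held 0.

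CG17490, which earlier results placed among the highest in siEGFP, lay at input in siEgg. It lies at 2L:22537668-22540597 and had 30 reads in the siEgg ChIP and 30 in the siEgg input, a ratio of 0.33 (-0.35 to 1.21). In siEGFP it had 280 and 25 reads, a ratio of 3.46. Unlike uex, CG17490 had no excess in siEgg beyond its counting error.

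The ratios of the 12 highest called genes with at least 10 reads in both siEgg libraries ran from 1.63 to 2.12. At the top was lncRNA:CR43838, a noncoding RNA gene at X:20759736-20760953, with 42 ChIP and 12 input reads in siEgg, a ratio of 2.12 (1.29 to 3.30), and 182 and 15 reads in siEGFP, a ratio of 3.77. lncRNA:roX2, an RNA of the complex that raises X-linked transcription in males, at X:11579065-11580432, had 34 and 16 reads in siEgg, a ratio of 1.65 (0.62 to 2.48), and 126 and 10 reads in siEGFP, a ratio of 3.43. Both noncoding genes lay above input in either pair, by less in siEgg. In the same range lay asRNA:CR45146 at 1.86 (3.15 in siEGFP), CG10357 at 1.84 (3.10), CG10395 at 1.72 (3.22) and mRpL27, a mitochondrial ribosomal protein gene, at 1.66 (3.05).

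Vti1b, a SNARE gene of vesicle fusion, had 26 ChIP and 10 input reads in siEgg, a ratio of 1.73, and 1.79 in siEGFP. l(3)mbn had 51 and 19 reads in siEgg, a ratio of 1.70, and 1.56 in siEGFP, so both lay above input in either pair, as cpx did. By contrast CG13658 had 29 and 10 reads in siEgg, a ratio of 1.79 (0.89 to 3.17), and 13 and 16 reads in siEGFP, a ratio of -0.02. Cog6, which encodes a subunit of the Golgi COG complex, had 30 and 11 reads in siEgg, a ratio of 1.66 (0.84 to 3.03), and 12 and 26 reads in siEGFP, a ratio of -0.74. Set against the siEGFP input in place of the siEgg input, the calls at Vti1b, l(3)mbn and Cog6 ended.

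With at least 100 reads in both siEgg libraries, 2 genes were called above input (0.615% of 325), cpx and asRNA:CR45139, and the next 4 fell short of 2-fold. CycK, the cyclin K gene, had 144 ChIP and 113 input reads and a ratio of 0.85 in siEgg and 1.44 in siEGFP, and CG40191 had 0.75 in siEgg and 1.02 in siEGFP. lncRNA:roX1, the partner RNA of roX2, had 283 and 235 reads and 0.68 (0.45 to 0.96) in siEgg, and 231 and 225 reads and 0.34 in siEGFP. Unlike roX2 it was not lower in siEgg. rl, the MAP kinase gene rolled, deep in the heterochromatin of chromosome 2, had 568 and 588 reads and 0.64 in siEgg and 0.74 in siEGFP.

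**Figure D3:**
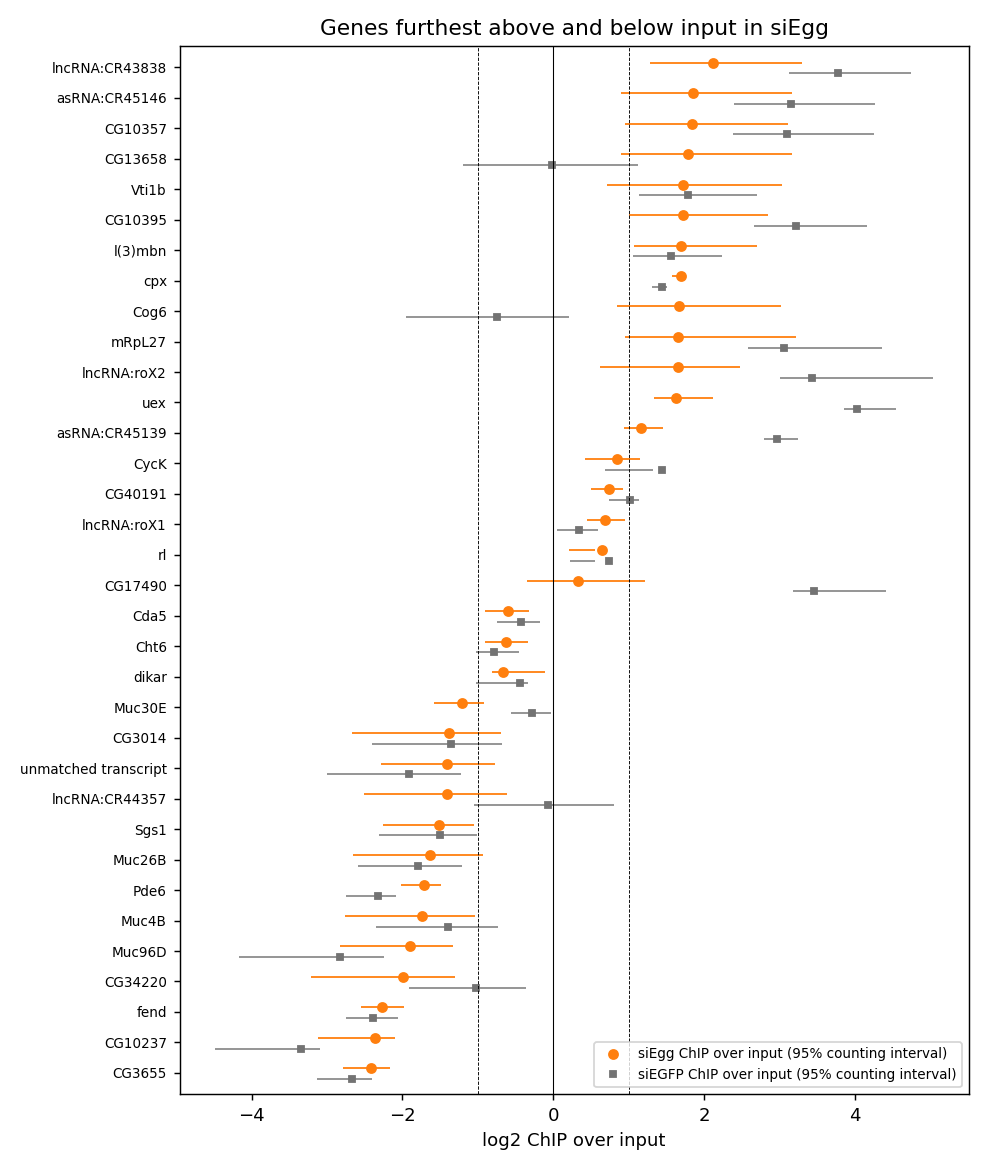
Log2 ChIP over input for CG17490 and for the genes furthest above and below input in siEgg. The latter were taken among called genes with at least 10 reads, and among genes with at least 100 reads, in both siEgg libraries. The siEgg values (orange circles) are drawn above siEGFP (grey squares), with 95% counting intervals as bars. Genes such as uex, lncRNA:roX2 and CG17490 have lower ratios in siEgg, while CG3655 and fend have overlapping intervals in both pairs; a point outside its bar comes from summing RPKM over rows of unequal length.

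Among the 61 genes called below input on at least 10 reads in both siEgg libraries, the lowest stood out for high input. That read limit itself favours high input at a low ratio. Without the limit the lowest called gene was lncRNA:CR44161, at -3.10 on 1 ChIP and 17 input reads. CG3655, at X:1073041-1134896, had 98 ChIP and 732 input reads in siEgg, a ratio of -2.42 (-2.79 to -2.16), and 72 and 593 reads in siEGFP, a ratio of -2.67. fend, at X:9121973-9135099, had 116 and 749 reads in siEgg, a ratio of -2.27 (-2.55 to -1.97), and 84 and 537 reads in siEGFP, a ratio of -2.39. Pde6, which encodes a cGMP phosphodiesterase, at 3R:14513901-14558304, had 143 and 651 reads in siEgg, a ratio of -1.71 (-2.02 to -1.49), and 87 and 561 reads in siEGFP, a ratio of -2.32. These genes lay below input in both pairs, and their siEgg inputs of 67.6 RPKM for CG3655, 77.8 RPKM for fend and 46.8 RPKM for Pde6 were far above the median gene. In each of the 3 every transcript row had a siEgg interval below 0.

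CG10237, at 2L:19435850-19442727, had 38 ChIP and 309 input reads in siEgg, a ratio of -2.36 (-3.12 to -2.10), and 20 and 327 reads in siEGFP, a ratio of -3.34. Here 1 of the 5 rows, of 2011 bases, held 287 of the input reads and 21 of the ChIP reads in siEgg, a row ratio of -3.22. The other 4 rows had ratios between -0.59 and 0.57 with intervals that held 0. The deficit at this gene thus sat in the sequence of that row.

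**Figure D4:**
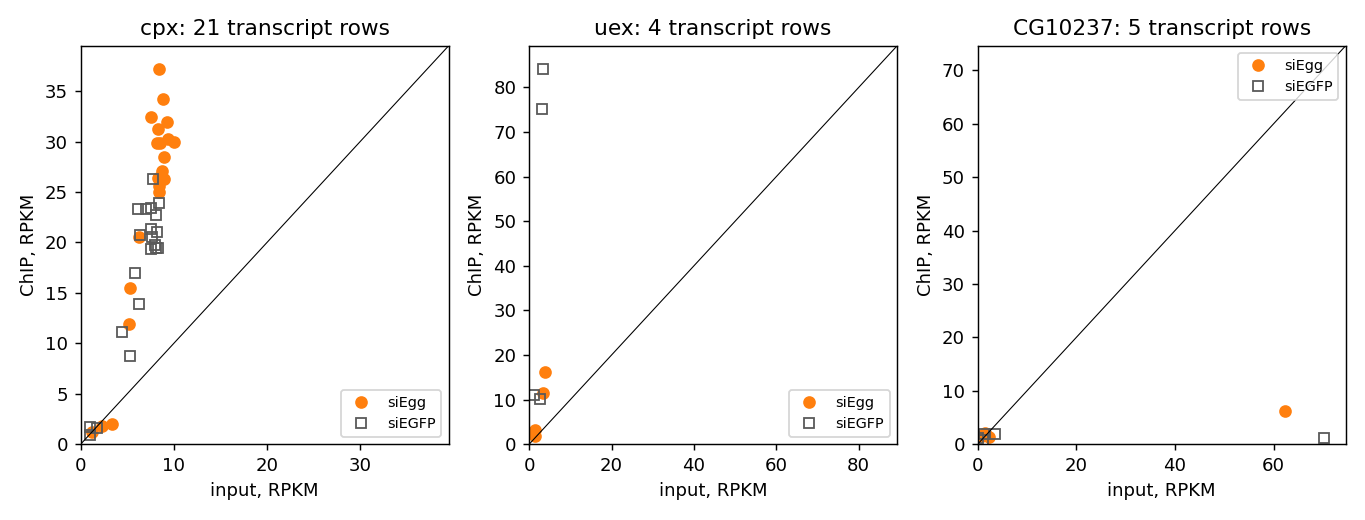
RPKM of each transcript row in the ChIP (vertical axis) against the input (horizontal axis) for cpx, uex and CG10237, with siEgg as filled circles, siEGFP as open squares and a line at equality. The cpx rows of both pairs lie well above the line, the 2 main uex rows lie above it in siEgg and much farther above it in siEGFP, and in CG10237 a row of high input lies far under it in both pairs.

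Genes for secreted mucins and salivary glue proteins, which carry long repeated stretches rich in glycosylation sites, recurred among the lowest. This family was picked out after its values were seen. Of its 26 kept members 7 were called below input in siEgg and 0 above, against 1.06% below over all genes, and 10 had intervals below 0. The median was -0.33 in siEgg and -0.77 in siEGFP, and the summed siEgg reads, 1438 in the ChIP and 2617 in the input, gave -0.43 (-0.52 to -0.34). Muc96D had 19 ChIP and 106 input reads in siEgg, a ratio of -1.90 (-2.83 to -1.33), and 11 and 117 reads in siEGFP, a ratio of -2.83. Muc30E, at 2L:9897820-9903128, had 102 and 327 reads in siEgg, a ratio of -1.20 (-1.58 to -0.92), and 190 and 283 reads in siEGFP, a ratio of -0.29. Muc96D was low in both pairs, whereas the ratio of Muc30E was lower in siEgg than in siEGFP, with a change of -0.92 (-1.36 to -0.53). The glue gene Sgs1 had 30 and 126 reads and -1.52 in siEgg, and -1.50 in siEGFP. The lowest member was the glue gene Sgs3, with 4 and 28 reads and -2.09 (-4.35 to -0.86) in siEgg, and -2.63 in siEGFP. Other called members were Muc4B at -1.74, Muc26B at -1.64 and Muc12Ea at -1.38, and family members above input, such as Muc14A at 0.15 on 514 and 621 reads, did not reach 2-fold.

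The rest of the 12 lowest called on at least 10 reads in both libraries included CG34220 at -1.99 (-1.02 in siEGFP). Also among them were CG3014 at -1.39 (-1.36) and lncRNA:CR44357 at -1.41 (-0.08). lncRNA:CR44357 lost its call when the longest of its 3 rows replaced the sum and when the siEGFP input was the denominator, and CG3014 lost its call with a pseudocount of 3 RPKM. A transcript without a matched gene had -1.40 in siEgg and -1.91 in siEGFP. Among genes with at least 100 reads in both siEgg libraries 3 were called below, which is 0.923% of 325. These were fend, Pde6 and Muc30E. The next were dikar at -0.66, the chitinase gene Cht6 at -0.62 and the chitin deacetylase gene Cda5 at -0.60, none of which was called.

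Position on the chromosome went with the siEgg ratio. The 245 kept pericentromeric genes had a median of 0.26 in siEgg, against -0.04 for the 15556 genes of the remaining arms, and 13 were called above (5.31%) and 1 below (0.408%), beside 1.29% and 1.06% over all genes. Their summed reads gave 0.34 (0.30 to 0.38) in siEgg and 0.82 in siEGFP. The X was different: its 50 pericentromeric genes had a median of -0.03 and a sum of 0.02 (-0.08 to 0.12) in siEgg, and a median of -0.31 in siEGFP. Without the X, 195 genes had a median of 0.34 and a sum of 0.40 (0.35 to 0.44), with 42 intervals above 0 and 0 below. They had a median of 24 ChIP and 24 input reads in siEgg, against 15 and 21 over all genes. By arm the summed siEgg ratios were 0.24 for the end of 2L, 0.44 for 2R, 0.46 for 3L and 0.66 for 3R, the last over 7 genes.

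Chromosome 4, which is small and largely heterochromatic, had 100 kept genes with a median of 0.26 in siEgg and 0.53 in siEGFP. Of these genes 3 were called above input (3%, beside 1.29% over all genes) and 0 below. Of their intervals 21 lay above 0 and 0 below, where 2.52% of all genes had an interval above 0. These genes had a median of 36 ChIP and 46.5 input reads in siEgg, against 15 and 21 over all genes. More reads narrow an interval, so these shares are not on an equal footing. With the longest row of each gene in place of the sum over rows the siEgg median was 0.11. The sum of its reads, 5649 in the siEgg ChIP and 6513 in the siEgg input, gave 0.23 (0.18 to 0.28), against 0.55 in siEGFP. The 23 kept genes of the Y had a sum of 0.19 (-0.08 to 0.47) in siEgg on 211 and 249 reads, which does not separate them from input at this depth. On the arms the 15556 genes summed to -0.04 (-0.05 to -0.03) in siEgg and -0.20 in siEGFP.

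Measured on arms 2L, 2R, 3L and 3R from the listed gene nearest the centromere, the 37 kept genes within 1 Mb had a median siEgg ratio of 0.56 and a sum of 0.46 (0.38 to 0.54). The 284 genes between 1 and 2 Mb had a median of -0.01 and a sum of 0.32, a sum in which cpx alone supplied 3124 of 11527 ChIP reads, and without cpx the sum was 0.03. The median siEgg input of this bin was 9.09 RPKM, against 6.63 within 1 Mb and 6.23 between 2 and 3 Mb. Between 2 and 3 Mb the median ratio was 0.07. Repeated genes, which share reads, were not taken out of any bin, and their part in these medians was not tested. Beyond 10 Mb the 9428 genes had a median of -0.04. On the X the bins within 4 Mb had medians between -0.09 and -0.03, with no rise toward the centromere.

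**Figure D5:**
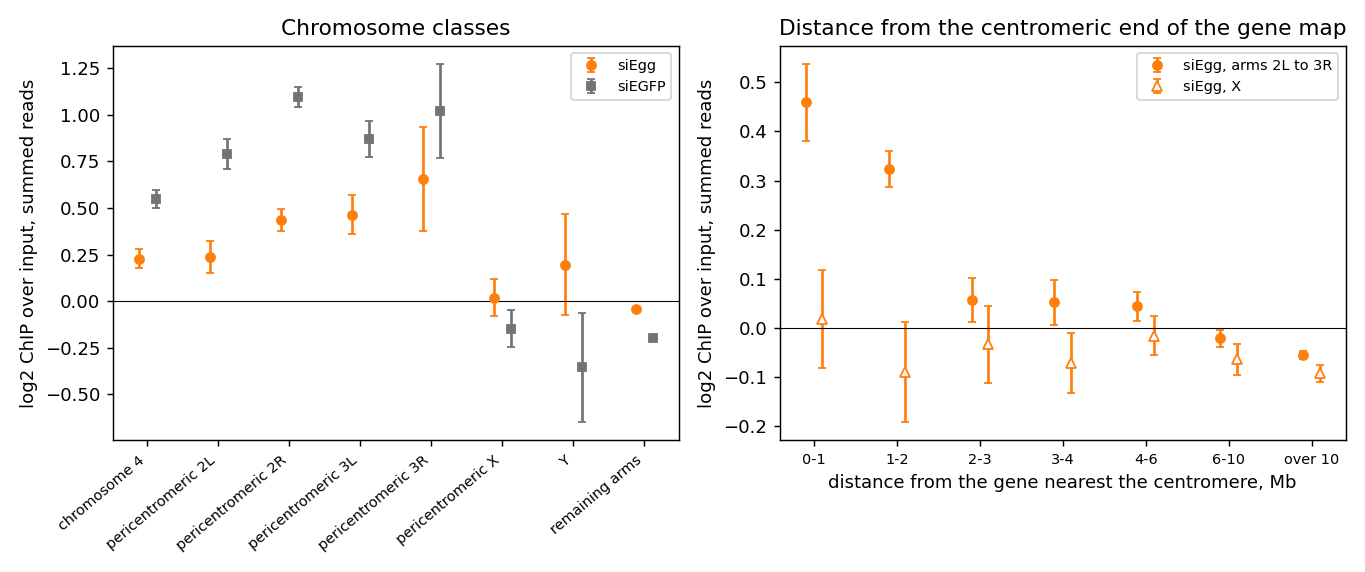
Left, log2 ChIP over input of summed reads for genes of each chromosome class, with siEgg (orange circles) left of siEGFP (grey squares) and 95% counting intervals. Right, the siEgg value by distance from the listed gene nearest the centromere for arms 2L to 3R (filled) and X (open), which reaches 0.46 within 1 Mb on 2L to 3R and 0.02 on the X.

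Called genes of the pericentromeric class carried out varied cellular tasks. Fis1, a mitochondrial fission gene at 2R:5603587-5604834, had 20 ChIP and 6 input reads in siEgg, a ratio of 1.97, and 2.85 in siEGFP. Tim17b, a mitochondrial import gene, had 1.79 in siEgg and 3.10 in siEGFP, the Mediator subunit gene MED21 had 1.53 and 3.78, and the ribosomal protein gene RpL15 had 1.52 and 2.49. In all 4 the siEgg ratio was the lower. However, the siEgg intervals of Fis1 (0.80 to 3.78), Tim17b (0.65 to 3.43) and RpL15 (0.51 to 3.15) held the siEGFP ratio. That of MED21 (0.51 to 2.87) did not. CG40228, with 118 and 88 reads in siEgg and a ratio of 1.07, and mRpS5, a mitochondrial ribosomal protein gene with 1.45, had siEGFP ratios of 1.19 and 1.75. The 1 called below input was tilB, a gene of ciliary dynein assembly on the X, at -1.01 in siEgg and -1.11 in siEGFP. On chromosome 4 the calls were lncRNA:sphinx at 1.58 (0.37 in siEGFP), the lipid kinase gene PIP4K at 1.47 (1.22) and CG32006 at 1.14 (0.09), on 17 to 21 ChIP reads each.

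Set beside the siEGFP calls, genes called above input there lay modestly above input in siEgg. The 2 pairs share no library. Over the 15749 genes kept in both pairs, 76 genes were called above in both, 36.7% of the 207 called in siEgg and 8.65% of the 879 called in siEGFP. Called below in both were 30, 17.6% of 170 in siEgg and 2.95% of 1016 in siEGFP. The 879 genes above input in siEGFP had a median siEgg ratio of 0.39, and 650 of them lay above 0. Those of the pericentromeric class, 65 genes, had a median of 0.72 in siEgg and 13 were called (20%), while the 770 on the arms had 0.35 and 60 were called (7.79%). With at least 20 reads in the siEgg input the median over 278 such genes was 0.23 and 6 were called. The 1016 genes called below in siEGFP had a median siEgg ratio of -0.12, and the 13854 genes not called there had -0.05. Of those 13854 genes, 0.895% were called above input in siEgg and 0.982% below. Over all genes kept, the shares were 1.29% above and 1.06% below in siEgg, and 5.57% and 6.37% in siEGFP.

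Of the 73 genes called above input on at least 10 reads in both siEgg libraries, 33 were also called above in siEGFP and 46 had a siEGFP ratio above 0. Of the 61 called below, 19 were also called below in siEGFP and 50 lay on the same side. Over all 16097 genes the siEGFP median was -0.28 and the upper quartile 0.22, so most genes lay below 0 there anyway. Among genes kept in siEGFP, 5.57% were called above and 6.37% below. Across the 5010 genes with at least 20 reads in each library, the siEgg and siEGFP ratios had Pearson's r of 0.36 and Spearman's rho of 0.28. Across the 231 genes with at least 100 reads, r was 0.57 and rho 0.45. These are correlations across genes, which are not independent replicates, and depth limits them.

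The lists of pathway genes mostly lay at input. None of 14 genes of the Egg machinery was called, and their median was -0.02 in siEgg and 0.16 in siEGFP. egg itself had 42 ChIP and 57 input reads in siEgg, a ratio of -0.01, and -0.68 in siEGFP, over DNA and not RNA. HP1c, a paralogue of heterochromatin protein 1, had 14 and 17 reads in siEgg, a ratio of 0.14 (-0.98 to 1.26), and 48 and 22 reads in siEGFP, a ratio of 1.36. The interval of HP1c is wide enough to hold a ratio past 2-fold. The highest ratio of the list was that of HP4, a heterochromatin protein gene, with 8 and 3 reads, 1.52 in siEgg with an interval that held 0, and 0.65 in siEGFP. wde, the gene of Windei, had -0.11 in siEgg and 0.57 in siEGFP.

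Of 18 somatic piRNA pathway genes 1 was called above input (5.56%), and of 14 germline piRNA genes 1 (7.14%), beside 1.29% over all genes. This was the same gene, and 1 gene does not set lists this small apart from that share. tej, which encodes the Tudor-domain protein Tejas and stands on both lists, had 30 ChIP and 17 input reads in siEgg, a ratio of 1.13 (0.35 to 2.20). In siEGFP it had 9 and 36 reads, a ratio of -1.52, and with the siEGFP input or the mean of both inputs as denominator, or a pseudocount of 3 RPKM, its siEgg call ended. The highest ratio of the somatic list, 1.24 (-0.25 to 3.33) in siEgg, was that of arx on 10 and 5 reads, and it was not called. The somatic list had a median of 0.01 and the germline list of 0.18 in siEgg. piwi had -0.14, and the germline gene AGO3, which lay at 1.43 in siEGFP, had 39 and 34 reads and 0.58 (-0.07 to 1.34) in siEgg. Boot, another germline piRNA gene, had 0.74 (-0.08 to 1.73) in siEgg on 26 and 20 reads, against 2.61 in siEGFP.

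Of the 7 genes for dosage compensation, roX2 was the only called member (14.3%, beside 1.29% over all genes), again 1 gene of a small list. The gene of the dosage compensation histone acetyltransferase, mof, had 19 and 48 reads and -0.81 (-1.75 to -0.11) in siEgg and 0.17 in siEGFP. The 11 genes known for follicle cells, among them tj at 0.07 and br at -0.42, had no call and a median of -0.13 in siEgg and -0.39 in siEGFP.

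The lists of ribosomal protein, respiratory chain and tubulin genes did not share one pattern between the pairs. Ribosomal and respiratory chain genes had the lower median in siEgg. The 11 tubulins instead had a median of 0.10 in siEgg and -1.06 in siEGFP. Calls in these lists are read beside 1.29% above and 1.06% below over all genes. The 92 cytoplasmic ribosomal protein genes had 5 calls above (5.43%) and 3 below (3.26%) in siEgg, a median of 0.27 and a sum of 0.26 (0.13 to 0.38), against a sum of 0.92 in siEGFP. RpS15 had 15 ChIP and 5 input reads in siEgg, a ratio of 1.82, and RpLP1 had 2 and 13 reads, a ratio of -2.01. Both calls ended with the siEGFP input as denominator, and that of RpLP1 also with the longest row. The list had a median of 12 input reads per gene, and its median ratio was -0.09 once at least 20 input reads were required. That filter acts on the denominator, and under it all genes had a median of -0.087. The 79 respiratory chain genes had 5 calls above (6.33%) and 1 below (1.27%), with a median of 0.07 in siEgg and 0.82 in siEGFP. ATPsynG, a subunit gene of the ATP synthase, had 17 and 5 reads in siEgg and a ratio of 1.89, against 1.08 in siEGFP, and its call too ended with the siEGFP input. The 72 mitochondrial ribosomal protein genes had 3 calls above (4.17%) and 1 below (1.39%), with a median of 0.10 in siEgg and 0.32 in siEGFP.

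Proteasome genes had a median of 0.02 in siEgg and 0.03 in siEGFP, with 0 calls above and 2 below (4.17%) among 48. These were Rpn12 at -1.36 and Prosalpha1 at -1.55, each on 6 or fewer ChIP reads. The call at Rpn12 ended with a pseudocount of 3 RPKM, and that at Prosalpha1 with the mean of both inputs, the siEGFP input or the longest row. Of 111 histone gene copies, which are near-identical and share reads, 1 was called above (0.901%), and their sum was -0.11 (-0.17 to -0.04) in siEgg and 0.17 in siEGFP. The 179 odorant, taste and ionotropic receptor genes had 2 calls below (1.12%), with a median of -0.10 in siEgg and -0.48 in siEGFP. Cuticle genes had 1 call below among 86 (1.16%). The lists of translation factors (52 genes), heat shock genes (19), homeobox genes (15), tubulins (11), housekeeping genes (10) and testis genes (10) had 0 calls in either direction in siEgg.

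Long noncoding RNA genes lay near the background of 1.29% above and 1.06% below. Of the 1563 kept 29 were called above (1.86%) and 23 below (1.47%) in siEgg, with a median of -0.02. The 344 antisense RNA genes had 11 calls above (3.2%) and 1 below, a median of 0.07 and a sum of 0.19 (0.13 to 0.26), against a sum of 0.69 in siEGFP. They held a median of 7 ChIP and 9 input reads, and with at least 20 input reads their siEgg median was -0.12. Under that filter on the denominator all genes had -0.087. asRNA:CR45612 was highest, at 3.04 on 9 ChIP reads and 1 input read. Genes for small nucleolar RNAs and microRNAs, with about 1 read each, had medians of 0.39 in siEgg, close to the 0.43 that equal reads in the 2 libraries give because of their depths, and these medians say nothing of Egg.

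The siEgg ratio also varied with row length and input level. Among the 6125 genes with at least 20 reads in both siEgg libraries, it correlated with the log10 length of the longest row at Pearson's r of -0.24 (rho -0.28). Genes with a longest row under 1500 bases had a median ratio of 0.16, and those over 6000 bases had -0.12. The ratio also correlated with log10 input RPKM at r of -0.29 (rho -0.43), but the input value is the denominator of the ratio and was used to choose the genes. Length and input level were not tested as sources of the differences above.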

How the data were processed

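The authors deposited 1 table of RPKM values for an Egg ChIP and an input library of siEgg and of siEGFP cells, with 35327 transcript rows and 175 transposon rows. The submitters' processing notes name Bowtie2 2.2.4 and dm6, and other steps are not given in the sources used here. Read numbers were recovered from the deposited RPKM by scaling each column to whole reads, with lengths anchored on the 5S rRNA rows of 135 bases. All 34762 rows with a read came out whole within 0.0001 reads, and 740 rows were 0 throughout. The smallest row length that gave whole reads was taken, so wholeness is not a check on the read numbers. Where the reads of a row share a common factor, its recovered reads are too few and its interval is too wide. The recovered depths and interval widths rest on the 5S rRNA anchor, and the recovery was tested on simulated data. RefSeq names and positions (Release 6 plus ISO1 MT) were matched for 35086 rows, and 241 rows had no match.

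Transcript rows were summed per gene, and genes and transposons above 0.6 RPKM in both siEgg columns were kept. Ratios used a pseudocount of 0.6 RPKM. Ratios have exact intervals (Clopper-Pearson, 95%), and changes have intervals by normal approximation. With 1 column per group there was no residual spread, so the planned fallback without a test was used and no p-values were computed. Alternatives covered the pseudocount, the filter, centring, the input used and the row used per gene.

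The members and gene lists were chosen with earlier results of these data known. Genes named were the 12 highest and 12 lowest called with at least 10 reads in both siEgg libraries, the 6 highest and 6 lowest with at least 100 reads, called or extreme members of the lists, the 8 highest and 5 lowest transposons, and diver, uex and CG17490. Other transposons and genes named beside them, and the mucin family, were chosen after their values were seen. Not found under their list names were 12 entries, among them TART and TAHRE, and no rows were found for transfer RNA or mitochondrial genome genes. Pericentromeric genes were those past 22 Mb on 2L, 23 Mb on 3L and 22 Mb on X, and before 6 Mb on 2R and 4 Mb on 3R. Computation used Python 3.11.15, numpy 2.4.6, pandas 2.3.3, scipy 1.17.1 and matplotlib 3.10.9.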

Additional observations from a re-analysis of the deposited data

Results flagged for a closer look

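Some features had a counting interval on one side of 0 in siEgg and on the other side in siEGFP. The ratios were not centred, and the gene median was -0.03 in siEgg and -0.28 in siEGFP. These differences were not tested over samples, since each group has 1 library, and their cause was not tested. Among transposons the ratio of roo was 0.35 in siEgg and -0.10 in siEGFP, that of Transpac was 0.26 in siEgg and -0.27 in siEGFP, and that of FB was 0.14 in siEgg and -0.44 in siEGFP. In the other direction, the LINE element G6 had -0.28 in siEgg and 0.72 in siEGFP, and springer had -0.043 in siEgg and 0.54 in siEGFP.

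Among the genes kept in both pairs, 7 were called above in siEgg and below in siEGFP, and 4 the reverse, which were COX7C, RpLP1, GstT1 and lncRNA:CR43631. Of the genes named or listed, tej had 1.13 in siEgg and -1.52 in siEGFP, on 30 ChIP and 17 input reads and on 9 and 36 reads. The beta-tubulin gene betaTub56D had 0.95 in siEgg and -1.70 in siEGFP, with 34 and 23 reads in siEgg and 9 and 41 in siEGFP. The cytochrome c oxidase subunit gene COX7C had -1.58 in siEgg and 1.48 in siEGFP, on 4 and 20 reads in siEgg and 25 and 8 in siEGFP. The ribosomal protein gene RpLP1 had -2.01 in siEgg and 1.15 in siEGFP, with 2 and 13 reads in siEgg and 19 and 10 in siEGFP. At tej, betaTub56D and COX7C the input reads of the pairs differed as well as the ChIP reads. At RpLP1 the input reads were close, 13 and 10, and the ChIP reads were 2 and 19.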

How the results depend on the processing

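No paired analysis was possible because the columns carry no replicate number, and with 1 column per group no library could be left out. The count of transposons called was 1 above and 0 below under every alternative run, and diver kept its call in each. None of the 46 named called features changed direction under an alternative run. With a pseudocount of 3 RPKM, 126 genes were above and 83 below input. With at least 20 input reads required, 11 were above and 109 below. That filter acts on the denominator, and 135 of the 208 genes above but 0 of the 171 below had under 10 input reads. With it the gene median was -0.087. With the siEGFP input as denominator 301 genes were below and 177 above, 60 of them among the 208, the gene median was -0.12 and the transposon median 0.22. With the mean of both inputs these medians were -0.076 and 0.21, and 112 of 191 genes above were among the 208. Centring put the gene median at 0.00, and the longest row of each gene put it at -0.011 and that of chromosome 4 at 0.11. Of 46 named called features, 30 kept their call with the siEGFP input, 42 with the mean of both inputs and 42 with the pseudocount of 3 RPKM, and 38 of 45 did so with the longest row. The causes were not tested. Read numbers limit the gene calls: 15 ChIP and 21 input reads at the median gene leave intervals wider than 2-fold.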
